A study of Mus musculus with 20 samples.

Results

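The genes described are 10 T cell exhaustion genes, taken by name from the read count tables of MB49 bladder tumors. They are the receptors Pdcd1, Lag3, Havcr2, Tigit, Ctla4 and Cd160, the ectoenzyme gene Entpd1, and the transcription factor genes Tox, Tox2 and Tcf7, 10 of 28076 genes listed in any table. The study compared MB49, a bladder cancer line from a male mouse, without and with the Y chromosome, as cultured cells and as tumors. Each of the 4 groups had 5 libraries, all of bulk RNA: Y-negative cultures (library codes BN), Y-positive cultures (MB), tumors of Y-negative cells (MN11 to MN15) and tumors of Y-positive cells (MP6 to MP10). All tumors grew under the skin of wild-type male C57BL/6 mice, so host cells in both tumor groups carry a Y chromosome. Whether the libraries of a group are separate animals or cultures, which culture a tumor grew from, and how old the mice were is not given in the sources used here. In bulk RNA, fewer cells of a type and less RNA per cell cannot be told apart.

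T cells that meet their antigen for a long time, as in tumors, take up a state called exhaustion, in which inhibitory receptors stay on the cell surface and effector functions weaken. The receptor proteins PD-1 (Pdcd1), LAG-3, TIM-3 (Havcr2), TIGIT, CTLA-4 and CD160 bind ligands on tumor or antigen-presenting cells, CD39 (Entpd1) breaks down extracellular ATP, TOX drives the exhausted state, and TCF-1 (Tcf7) keeps a stem-like pool of exhausted cells that can still divide. Several of these genes are not confined to T cells: TIM-3 and CD39 are also found on macrophages and dendritic cells, CD39 on endothelium, CTLA-4 on regulatory T cells, and CD160, TIGIT and LAG-3 on NK cells.

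The libraries held 14856008 to 21180885 reads in tumors and 14557118 to 20866142 in cell lines. Summed over Ddx3y, Eif2s3y, Kdm5d and Uty, 4 genes of the Y chromosome, Y-negative tumors had 17.9 to 29.7 CPM (a gene's reads scaled to a common library total) and Y-positive tumors 135.0 to 234.3. The 2 of these genes listed for cell lines summed to 0 to 0.0521 CPM in Y-negative and 12.6 to 100.2 CPM in Y-positive cultures. Over all genes, the Y-negative tumors formed 2 sets: chi-square per degree of freedom was 7.47 to 14.7 within MN11, MN13 and MN14, 13.8 between MN12 and MN15, and 90.1 to 127.0 across the sets, against 20.8 to 104.0 among Y-positive tumors. The slope of log2 level on log2 transcript length also split them, at 0.652 to 0.695 in MN11, MN13 and MN14 and at 0.382 and 0.392 in MN12 and MN15, against 0.255 to 0.556 in Y-positive tumors. The members' results are therefore given with and without these sets.

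All 10 genes had reads in tumors, and per transcript length they spanned a wide range of levels. In FPKM (the authors' values, which divide a library's reads by transcript length and library total; mean ± SD over 10 tumors), Entpd1 was at 31.4 ± 4.59, Havcr2 at 8.74 ± 1.79, Tigit at 6.45 ± 1.33, Pdcd1 at 5.64 ± 3.59 and Lag3 at 4.24 ± 1.22. Below these came Ctla4 at 2.93 ± 1.61, Tox at 1.22 ± 0.604, Tcf7 at 1.04 ± 0.317, Cd160 at 0.698 ± 0.520 and Tox2 at 0.0325 ± 0.0550. The mean ± SD ranges of neighbours in this order overlapped, except between Entpd1 and Havcr2 and between Cd160 and Tox2. The order depends on the length used: the FPKM of Entpd1 implies 1059 bases, while the length listed for it in the same tables is 5580 bases. By CPM per kilobase of the listed length, Havcr2 (8.44 ± 1.73) and Tigit (6.45 ± 1.33) came before Entpd1 (5.96 ± 0.871), and Tox (0.374 ± 0.185) came after Tcf7 (0.834 ± 0.255) and Cd160 (0.543 ± 0.405). The genes also differed in how much they varied between tumors: the highest library exceeded the lowest 1.62-fold for Entpd1, 1.66-fold for Tigit, 2.0-fold for Havcr2, 2.36-fold for Lag3 and 2.73-fold for Tcf7, but 6.10-fold for Tox, 6.20-fold for Pdcd1, 18.8-fold for Ctla4 and 36.0-fold for Cd160 (CPM). The low end of the last pair rests on 6 Ctla4 reads and 2 Cd160 reads in MN14.

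**Figure D1:**
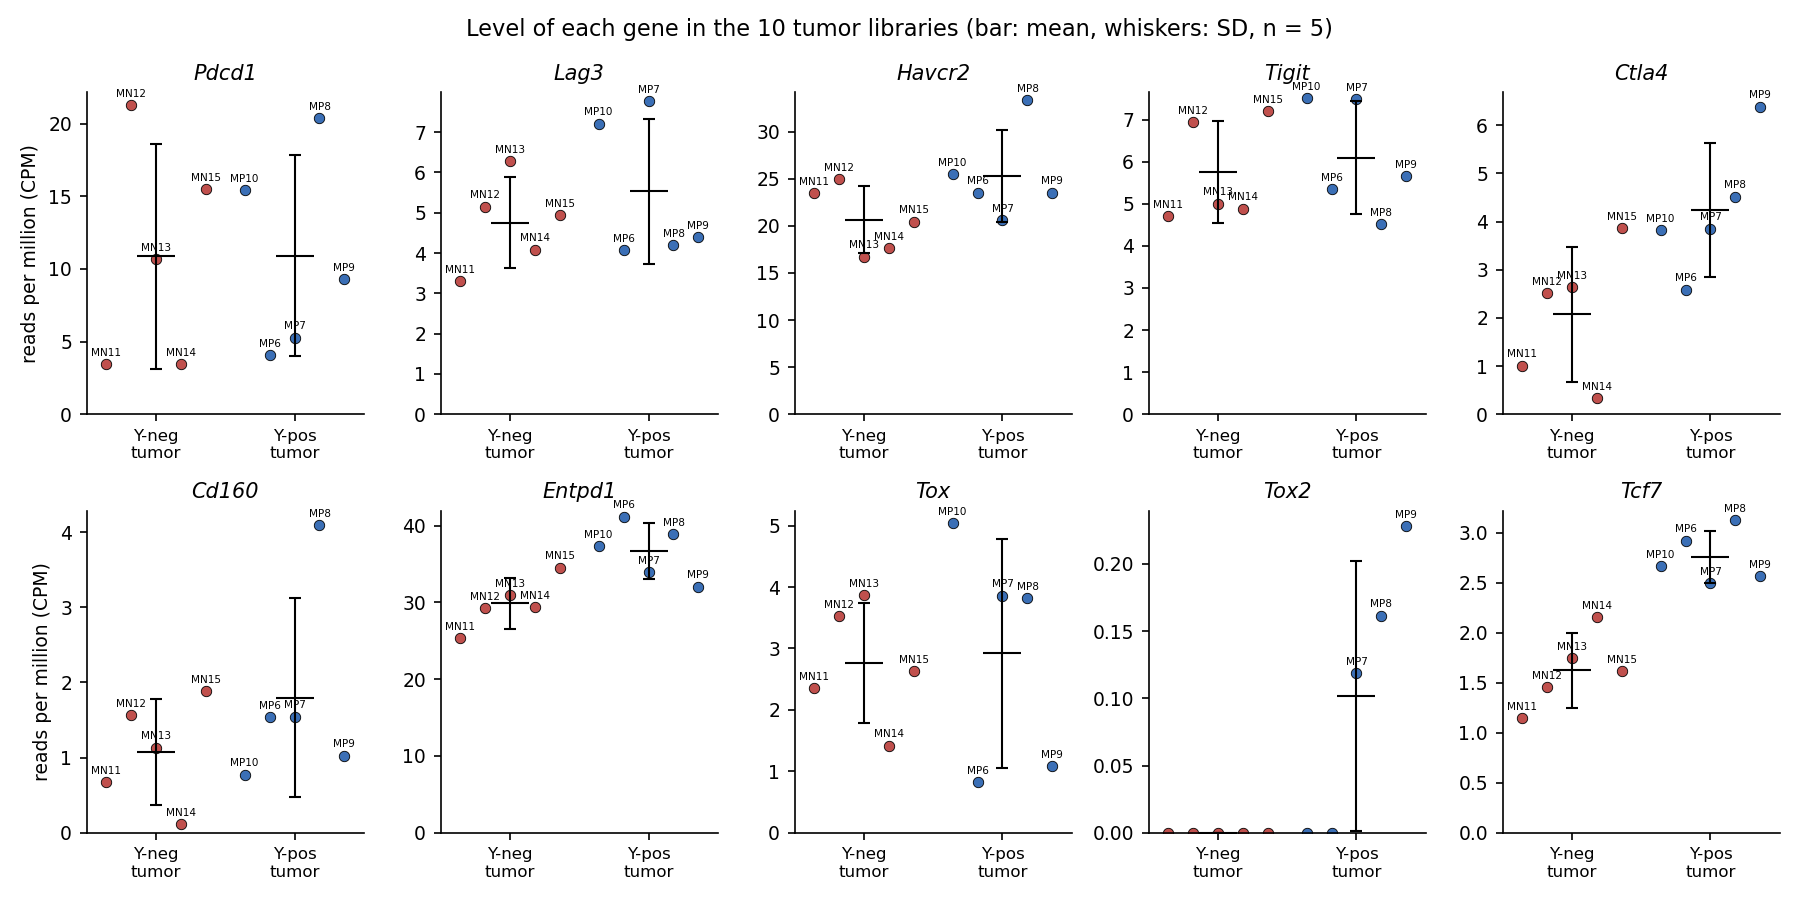
Level of each of the 10 genes (CPM, linear axes from 0) in 5 Y-negative and 5 Y-positive tumor libraries, with 1 point per library, the mean as a bar and the SD as whiskers. The groups are apart for Tcf7 alone among these genes, with Y-negative tumors at 1.14 to 2.16 and Y-positive tumors at 2.49 to 3.12, and the Pdcd1 points of both groups cover nearly the same range.

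The stretch before the start site was read for pairs of genes, to show how the receptors differ there. Havcr2 and Tigit were listed for cultured MB49 cells, Tigit with 2 to 67 reads per culture, and Pdcd1 and Ctla4 were not. The sequences are the 250 bases before the RefSeq start (GRCm38.p6, the build called mm10), at chr11:46454681-46454930, plus strand (Havcr2), chr16:43664185-43664434, minus strand (Tigit), chr1:94052554-94052803, minus strand (Pdcd1) and chr1:60908775-60909024, plus strand (Ctla4), printed 5′ to 3′ on the gene's strand. Capitals mark matches on either strand to GGAAA, the core bound by NFAT, the calcium-regulated factor family of T cell activation, and to TGANTCA, the AP-1 site. RefSeq start sites were at hand for 8 of the 10 genes, without Lag3 and Tox. The bases after the start were found in a transcript for Havcr2, Pdcd1 and Ctla4 but not for Tigit.
Havcr2: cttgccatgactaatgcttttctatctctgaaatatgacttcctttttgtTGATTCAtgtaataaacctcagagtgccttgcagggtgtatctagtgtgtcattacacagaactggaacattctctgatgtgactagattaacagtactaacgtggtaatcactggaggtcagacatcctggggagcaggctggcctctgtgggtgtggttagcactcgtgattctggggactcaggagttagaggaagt
Tigit: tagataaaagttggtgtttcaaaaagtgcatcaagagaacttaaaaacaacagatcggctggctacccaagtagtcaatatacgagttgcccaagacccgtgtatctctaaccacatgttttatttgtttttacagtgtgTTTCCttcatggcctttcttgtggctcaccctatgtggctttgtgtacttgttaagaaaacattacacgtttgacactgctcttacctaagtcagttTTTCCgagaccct
Pdcd1: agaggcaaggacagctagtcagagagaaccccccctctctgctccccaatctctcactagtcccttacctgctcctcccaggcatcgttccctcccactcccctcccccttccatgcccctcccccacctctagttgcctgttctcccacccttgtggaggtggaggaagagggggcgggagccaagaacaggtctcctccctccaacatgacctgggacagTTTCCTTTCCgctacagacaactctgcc
Ctla4: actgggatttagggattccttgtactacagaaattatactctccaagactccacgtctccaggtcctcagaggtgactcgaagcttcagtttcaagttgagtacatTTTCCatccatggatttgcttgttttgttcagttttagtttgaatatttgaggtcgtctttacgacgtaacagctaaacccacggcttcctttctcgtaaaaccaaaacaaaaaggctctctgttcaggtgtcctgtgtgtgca
The Havcr2 stretch holds 1 AP-1 match and 0 NFAT matches, the Tigit stretch 2 NFAT matches, the Pdcd1 stretch 2 NFAT matches next to each other, and the Ctla4 stretch 1. NFAT matches occur in 55.6% and AP-1 matches in 6.75% of 32851 such stretches of mouse genes, so the NFAT matches are common ones. The stretches differ in composition, with G and C at 60.4% of the bases of Pdcd1, 44.8% of Havcr2, 42.4% of Ctla4 and 40.0% of Tigit. These matches describe letters alone, and no binding was measured.

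Between the tumor groups, none of the 9 members that passed the filter on low counts was called by edgeR's quasi-likelihood test at an adjusted p under 0.05 (0 of 9), where 2.45% of the 14783 genes tested were called (1.45% higher and 1.0% lower in Y-negative tumors). At an unadjusted p under 0.05 there were 2 of 9, Tcf7 and Entpd1, against 22.7% of all genes. DESeq2 and limma-voom also called 0 of 9, where they called 9.02% and 2.04% of genes. The fitted log2 change, Y-negative minus Y-positive, was below 0 for 8 members and above 0 for 1, with a median of -0.30, and the median over all genes tested was -0.01. Of Tox2, the tenth gene, too few reads were counted for the fit.

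Among the receptors, Pdcd1, the gene of PD-1, lies at chr1:94038305-94052553 on the minus strand (mm10, the build of all positions given). Its level was 3.43, 21.3, 10.7, 3.46 and 15.5 CPM in the Y-negative tumors MN11 to MN15 and 4.07, 5.28, 20.4, 9.30 and 15.4 CPM in the Y-positive tumors MP6 to MP10. Both groups thus held libraries near 4 CPM and above 15 CPM, and the values interleaved, with the highest in MN12 and the lowest in MN11. The means were 10.9 ± 7.74 and 10.9 ± 6.92 CPM (SD, n = 5), and the log2 change was 0.02 ± 0.55 (SE; 95% interval -1.17 to 1.21; edgeR adjusted p = 0.988). That interval holds changes of over 2-fold either way, and the sign turned with the scaling: upper-quartile scaling gave -0.03. Within the Y-negative tumors, MN12 and MN15 were at 21.3 and 15.5 CPM and MN11, MN13 and MN14 at 3.43 to 10.7 CPM, and without MN12 and MN15 the log2 change was -0.98 ± 0.54 (adjusted p = 0.202; 0.202 to 0.998 over all alternatives). Without MN11, MN13 and MN14 it was 0.81 ± 0.50 (adjusted p = 0.677), and with the length slope of each library as a covariate 0.67 ± 0.43 (adjusted p = 0.398).

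Ctla4, which lies at chr1:60887000-60915832 on the plus strand, encodes the receptor that takes CD80 and CD86 away from the co-stimulator CD28. Its level was 1.01, 2.52, 2.64, 0.340 and 3.87 CPM in MN11 to MN15 (15, 45, 56, 6 and 72 reads) and 2.59, 3.86, 4.52, 6.39 and 3.83 CPM in MP6 to MP10 (47 to 112 reads). The 3 Y-negative libraries MN11, MN12 and MN14 lay below all Y-positive ones, while MN13 and MN15 lay among them. Ctla4 had the lowest fitted change of the 9 members, -1.02 ± 0.50 (95% interval -2.10 to 0.07), with means of 2.08 ± 1.40 and 4.24 ± 1.39 CPM, and it did not pass the test (edgeR adjusted p = 0.249; 0.0392 to 0.831 over the alternatives). Without MN12 and MN15 the log2 change was -1.74 ± 0.55 and passed (adjusted p = 0.0392), while without MN11, MN13 and MN14 it was -0.36 ± 0.42 (adjusted p = 0.831). With the length slope as a covariate it was -0.40. The Ctla4 span also holds the pseudogene Rpl18-ps1, which was listed with 369 reads of its own in the 10 tumors.

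Havcr2, the gene of TIM-3, lies at chr11:46454935-46481255 on the plus strand and had the most reads of the 6 receptors, 311 to 620 per tumor. Its level was 23.5, 24.9, 16.7, 17.6 and 20.4 CPM in MN11 to MN15 and 23.5, 20.6, 33.4, 23.5 and 25.5 CPM in MP6 to MP10. MN13, MN14 and MN15 lay below all Y-positive tumors, and MN11 and MN12 within their range. With means of 20.6 ± 3.57 and 25.3 ± 4.84 CPM, the log2 change was -0.30 ± 0.18 and did not pass (edgeR adjusted p = 0.328). It was -0.47 ± 0.19 without MN12 and MN15 (adjusted p = 0.0884) and -0.10 ± 0.22 without MN11, MN13 and MN14 (adjusted p = 0.918).

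Lag3, whose protein binds MHC class II, lies at chr6:124904361-124911705 on the minus strand. Its level was 3.30, 5.15, 6.28, 4.09 and 4.95 CPM in MN11 to MN15 and 4.07, 7.77, 4.20, 4.39 and 7.21 CPM in MP6 to MP10. MP7 and MP10 were the highest, and the other 3 Y-positive tumors lay inside the Y-negative range (log2 change -0.22 ± 0.27, edgeR adjusted p = 0.649). Without MN12 and MN15 the Lag3 change was -0.36 ± 0.32, and without MN11, MN13 and MN14 -0.07 ± 0.35. Tigit (chr16:43648867-43664146, minus strand), whose protein binds the poliovirus receptor CD155, was at 4.71, 6.94, 5.01, 4.88 and 7.21 CPM in MN11 to MN15 and at 5.34, 7.48, 4.52, 5.65 and 7.50 CPM in MP6 to MP10. The Tigit values of both groups ran over nearly the same span, and the log2 change was -0.08 ± 0.24 (95% interval -0.59 to 0.43, edgeR adjusted p = 0.865), with 0.09 when the length slope was a covariate. Without MN12 and MN15 it was -0.41 ± 0.25, and without MN11, MN13 and MN14 0.27 ± 0.29.

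Cd160 (chr3:96798763-96829351, minus strand), a receptor gene of cytotoxic T and NK cells, was the least abundant receptor, with 2 to 76 reads per tumor. Its level was 0.673, 1.57, 1.13, 0.114 and 1.88 CPM in MN11 to MN15 and 1.54, 1.54, 4.09, 1.03 and 0.775 CPM in MP6 to MP10. MP8 stood above every other library, MN14 and MN11 were the lowest, and the remaining 7 lay between 0.775 and 1.88 CPM in both groups. The log2 change was -0.72 ± 0.62 (edgeR adjusted p = 0.509), and its 95% interval ran from -2.05 to 0.61. It was -0.17 without MP8, -1.55 without MN12 and MN15, and -0.0027 without MN11, MN13 and MN14.

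Entpd1 (chr19:40612366-40741602, plus strand) had 377 to 771 reads per tumor and the smallest spread of the 10 genes. Its level was 25.4, 29.3, 30.9, 29.4 and 34.5 CPM in MN11 to MN15 and 41.2, 33.9, 38.9, 32.1 and 37.3 CPM in MP6 to MP10. MN15 was the only Y-negative tumor inside the Y-positive range, and the other 4 lay below it. The means were 29.9 ± 3.30 and 36.7 ± 3.68 CPM, and the log2 change of -0.30 ± 0.13 (unadjusted p = 0.039) did not pass the adjustment (edgeR adjusted p = 0.198; 0.0357 to 0.842 over the alternatives). Without MN12 and MN15 it was -0.44 ± 0.13 and passed (adjusted p = 0.0357), and without MN11, MN13 and MN14 it was -0.14 ± 0.17 (adjusted p = 0.842). In the comparison of MN11, MN13 and MN14 with the 5 Y-positive tumors, Entpd1 and Ctla4 were the 2 members called, where 3630 genes, or 23.6% of those tested, were called. With MN12 and MN15 as the only Y-negative tumors, 21 genes (0.132%) and no member were called (0 of the members). The 2 of 9 members called without MN12 and MN15 are a share near that of all genes. The Entpd1 span also holds the pseudogenes Gm8783 and Gm16027, listed with 152 and 9 reads of their own in the 10 tumors.

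Among the transcription factors, Tcf7 (chr11:52252371-52283014, minus strand) was the only one of the 10 genes whose groups did not overlap, a pattern shown by 5.45% of all genes tested. Its level was 1.14, 1.46, 1.75, 2.16 and 1.61 CPM in MN11 to MN15 (17 to 38 reads) and 2.92, 2.49, 3.12, 2.57 and 2.66 CPM in MP6 to MP10 (42 to 58 reads). Every Y-negative tumor, of both sets, was below every Y-positive one. The means were 1.62 ± 0.373 and 2.75 ± 0.262 CPM, and the log2 change was -0.77 ± 0.27 (95% interval -1.35 to -0.19; unadjusted p = 0.0135). It did not pass the adjustment over all genes (edgeR adjusted p = 0.131; 0.051 to 0.600 over the alternatives), but its value lay between -0.88 and -0.66 in every alternative fit of the tumors scaled on library size. It was -0.78 ± 0.34 without MN12 and MN15 and -0.78 ± 0.39 without MN11, MN13 and MN14. With all 10 tumors it was -0.98 to -0.43 on the scales set by CD3 genes or Ptprc. The Tcf7 span overlaps the noncoding RNA gene Gm26551 and the antisense gene A630014C17Rik, listed with 20 and 3 reads of their own in the 10 tumors.

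Tox (chr4:6686353-6991557, minus strand) was at 2.36, 3.53, 3.87, 1.42 and 2.64 CPM in MN11 to MN15 and at 0.826, 3.86, 3.82, 1.08 and 5.04 CPM in MP6 to MP10. The Y-positive tumors split into MP6 and MP9 near 1 CPM and MP7, MP8 and MP10 near 4 CPM or above, with all Y-negative tumors inside that range. The log2 change was -0.09 ± 0.47 (95% interval -1.11 to 0.94; edgeR adjusted p = 0.934), and limma-voom gave 0.15. It was -0.28 ± 0.57 without MN12 and MN15 and 0.13 ± 0.63 without MN11, MN13 and MN14. Tox2 (chr2:163203125-163324170, plus strand), a relative of Tox, had 0 reads in all 5 Y-negative tumors and 2, 3 and 4 reads in MP7, MP8 and MP9, with 0 in MP6 and MP10. Against a floor of 3 reads over the Y-negative group, the 9 pooled reads of the Y-positive group were 2.95-fold that floor by their count. The ratio was 1.35-fold by the low end of their counting interval and 2.02-fold by count without MP9. Since MP6 and MP10 had 0 reads like the Y-negative tumors, the groups overlapped. These ratios are therefore no bounds on the difference between the groups. The pooled Y-positive level was 0.0981 CPM (exact 95% Poisson interval 0.0448 to 0.186, for counting error only), and no test was made of so few reads.

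**Figure D2:**
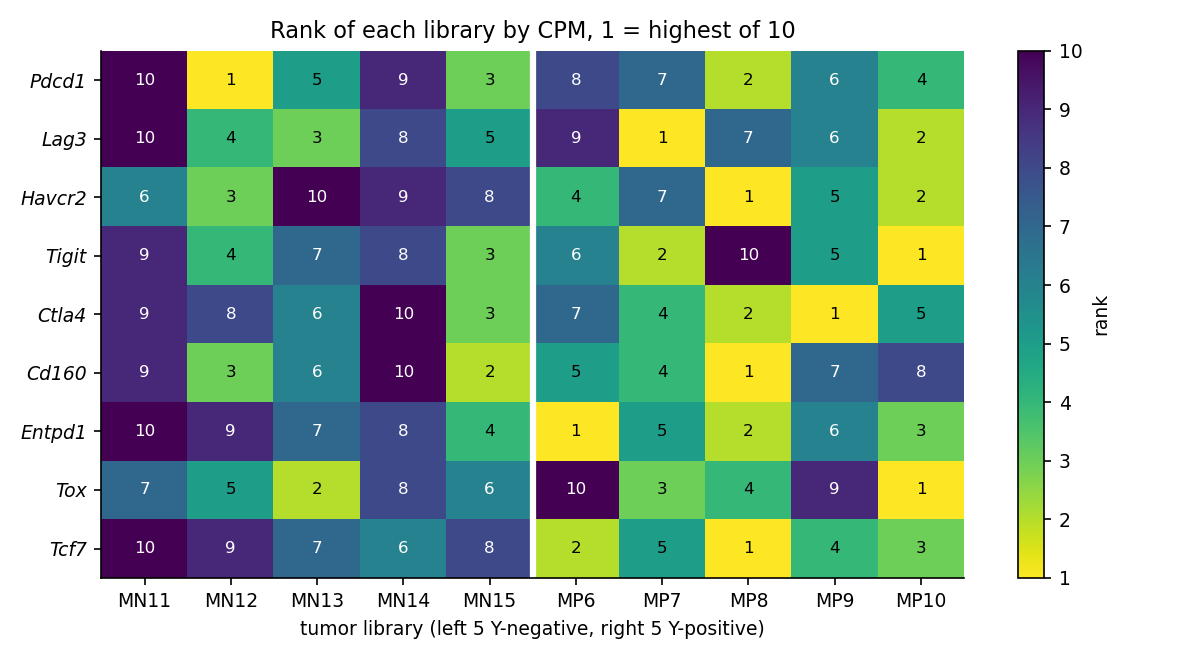
Rank of the 10 tumor libraries by CPM for each of the 9 tested genes, where 1 is the highest and colour follows the rank, with Y-negative libraries on the left and Y-positive ones on the right. Ranks 6 to 10 fill the Y-negative side for Tcf7, while for Pdcd1 and Tox ranks are spread over both sides, and MN11 and MN14 rank 6 to 10 for all 9 genes.

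The members did not rank the tumors alike, though MN11 and MN14 ranked from 6 to 10 of 10 for each of the 9 tested genes. MN11 had the lowest level of Pdcd1, Lag3, Entpd1 and Tcf7, and MN14 of Ctla4 and Cd160. MP8 had the highest level of Havcr2, Cd160 and Tcf7 but the lowest of Tigit. Over the 10 tumors, log2 CPM of Entpd1 and Tcf7 had a Pearson r of 0.829 (Spearman rho 0.842), Ctla4 and Cd160 0.786 (rho 0.539), Lag3 and Tigit 0.713 (rho 0.745), and Havcr2 and Lag3 -0.224 (rho -0.0545). These are descriptions over libraries that share depth, genotype group and the 2 sets of Y-negative tumors. Among T cell genes, Pdcd1 had r = 0.840 with Cd8a, the marker of cytotoxic T cells, and -0.171 with Cd4. Entpd1 and Tcf7 had r of 0.622 and 0.616 with Cd4 and of 0.146 and 0.203 with Cd8a. Markers of other cells gave values as high for Entpd1. Its r was 0.698 with Ncr1 of NK cells, 0.667 with Adgre1 of macrophages and 0.610 with Foxp3 of regulatory T cells. For Tcf7, r was 0.542 with Ncr1 and 0.647 with the T cell receptor gene Trac. With Cd3e, Cd3d and Cd3g, of the same receptor complex, the r of Tcf7 was 0.214, 0.154 and 0.0378.

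The non-member genes whose log2 CPM was most like that of a member over the 10 tumors were Sp110 for Pdcd1 (r = 0.963), Ptgr1 for Ctla4 (0.967), Parvg for Havcr2 (0.948), Twist2 for Lag3 (0.917), Gm12366 for Tigit (0.896), Apoe for Cd160 (0.903), Acaa2 for Entpd1 (0.948), Sh2d2a for Tox (0.895) and Scarf2 for Tcf7 (0.950). Sh2d2a encodes an adaptor of T cell receptor signalling, and the second gene for Cd160 was Vsir (r = 0.894), the gene of the checkpoint protein VISTA. Next in order were Ppp1ccb (0.954) and Tmco6 (0.953) for Pdcd1, Rbm43 (0.950) and Gm31597 (0.949) for Ctla4, Olfr56 (0.940) and Gstt1 (0.922) for Havcr2, and Crmp1 (0.822) and Zscan2 (0.813) for Lag3. The others were Gsto2 (0.873) and Zbtb48 (0.871) for Tigit, Fbxo24 (0.886) for Cd160, Cyp4v3 (0.933) and Csgalnact1 (0.927) for Entpd1, Snord89 (0.885) and H2-Q4 (0.864) for Tox, and Wdr18 and Tstd3 (both 0.942) for Tcf7. All were picked for the highest r among all genes tested over 10 libraries, so high values follow from the choice. Spearman rho was lower for some (0.697 for Twist2, 0.758 for Sh2d2a, 0.745 for Vsir) and as high for others (0.952 for Parvg).

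To set the members against a T cell gene, their reads were divided by those of Cd3e, a chain of the T cell receptor complex (chr9:44998740-45009627, minus strand). Cd3e was at 2.42, 5.71, 6.37, 6.41 and 5.48 CPM in MN11 to MN15 and at 2.92, 4.33, 8.18, 3.94 and 4.50 CPM in MP6 to MP10, from 36 to 152 reads. The groups overlapped (means 5.28 ± 1.65 and 4.77 ± 2.0 CPM; log2 change 0.14 ± 0.33, edgeR adjusted p = 0.831). Of 16 T cell markers, Cd3e was among the 2 with a change above 0, while 14 were below, with a median of -0.45. Cd3d was at -0.47 and Cd3g at -0.44, so Cd3e does not stand for T cell RNA as a whole. Cd3e did not rank the tumors like the other CD3 chains: its Pearson r over 10 tumors was 0.173 with Cd3d (rho 0.0424) and 0.211 with Cd3g (rho 0.0667). MN14, with 6.41 CPM of Cd3e, had 1.53 CPM of Cd3d, the lowest of all tumors.

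Per Cd3e read, Tcf7 stood at 0.472, 0.255, 0.274, 0.336 and 0.294 reads in MN11 to MN15 and at 1.0, 0.575, 0.382, 0.652 and 0.591 in MP6 to MP10. The groups now overlapped, since MN11 was above MP8. Ctla4 stood at 0.417, 0.441, 0.415, 0.0531 and 0.706 reads per Cd3e read in MN11 to MN15 and at 0.887, 0.890, 0.553, 1.62 and 0.850 in MP6 to MP10, so that MN15 alone reached into the Y-positive range. Pdcd1 stood at 0.540 to 3.73 reads per Cd3e read in Y-negative tumors (median 1.67) and at 1.22 to 3.43 in Y-positive ones (median 2.36). Havcr2 reached 9.69 in MN11 and 2.62 to 4.36 in the other Y-negative tumors, against 4.08 to 8.06 in Y-positive tumors.

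With Cd3e reads as the scale of each library, the median gene shifted to -0.12 on the log2 scale and 0.663% of all genes were called, and none of the 9 members was (0 of 9). At an unadjusted p under 0.05 there was 1 member, Ctla4, at -1.24 ± 0.55 (edgeR's quasi-likelihood test, adjusted p = 0.812), where 4.85% of genes were. Tcf7 was at -0.98 ± 0.59 (adjusted p = 0.999). All 9 changes were below 0 on this scale, with a median of -0.43, and 7 of 9 lay below the median gene, all but Pdcd1 and Tox. Other denominators moved all genes: the median gene was at 0.22 with the sum of Cd3e, Cd3d and Cd3g reads (0.129% of genes called) and at 0.31 with reads of the leukocyte gene Ptprc (7.56% called). With the sum of Cd3e, Cd3d and Cd3g reads, Pdcd1, Lag3, Tigit and Tox were above 0 (0.20, 0.02, 0.09 and 0.31). With Ptprc, Havcr2 and Entpd1 were above 0 too (0.06 and 0.02), and Pdcd1 was at 0.47. Relative to the median gene 8 of 9 members were lower with either denominator, all but Tox with the sum and all but Pdcd1 with Ptprc. With TMM scaling 8 of 9 were lower as well. A denominator moves the median gene along with the members. Position relative to that gene therefore does not measure a member per CD3 or Ptprc read. The members did not all move by the same amount. From Cd3e to the sum, Cd160 went from -0.75 to -0.68 and Lag3 from -0.43 to 0.02. Tcf7 was at -0.52 ± 0.57 with the sum and -0.43 ± 0.39 with Ptprc. Ctla4, Cd160 and Tcf7 stayed below 0 with each of the 3 denominators, and no member was called with any of them.

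**Figure D3:**
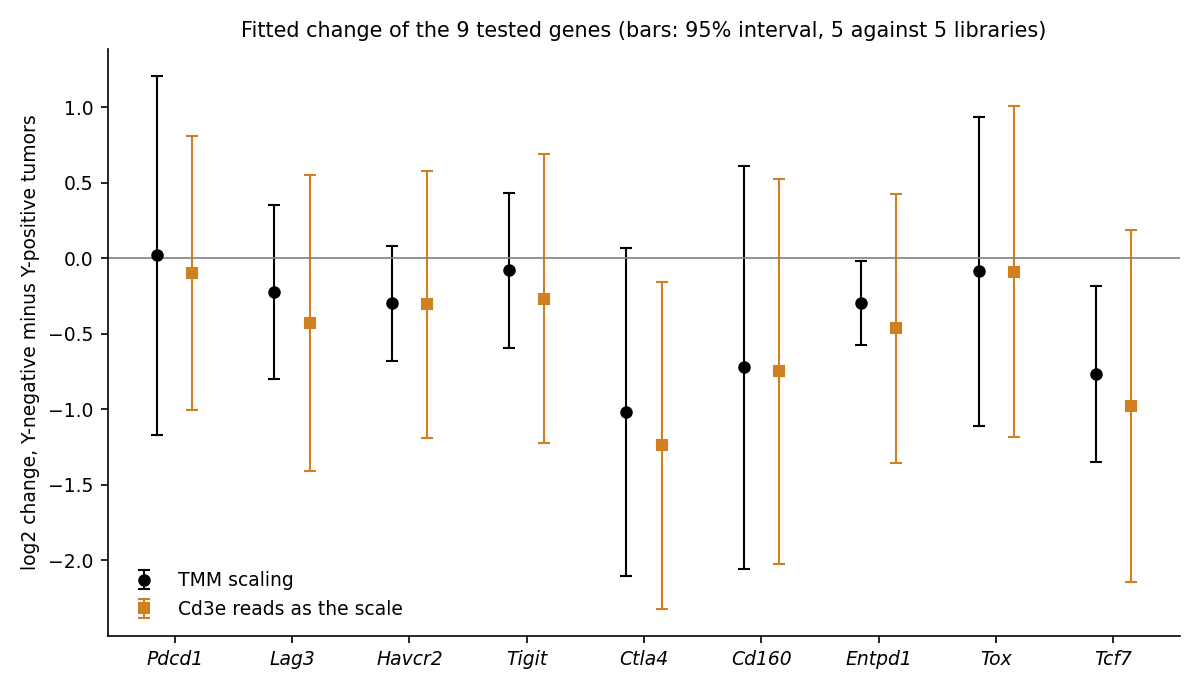
Fitted log2 change of the 9 tested genes, Y-negative minus Y-positive tumors, with TMM scaling (circles) and with Cd3e reads as the scale (squares), with 95% intervals from 5 against 5 libraries. With TMM the intervals of Tcf7 and Entpd1 lie below 0, and with Cd3e that of Ctla4 does, while Pdcd1 and Tox lie near 0 on both.

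**Figure D4:**
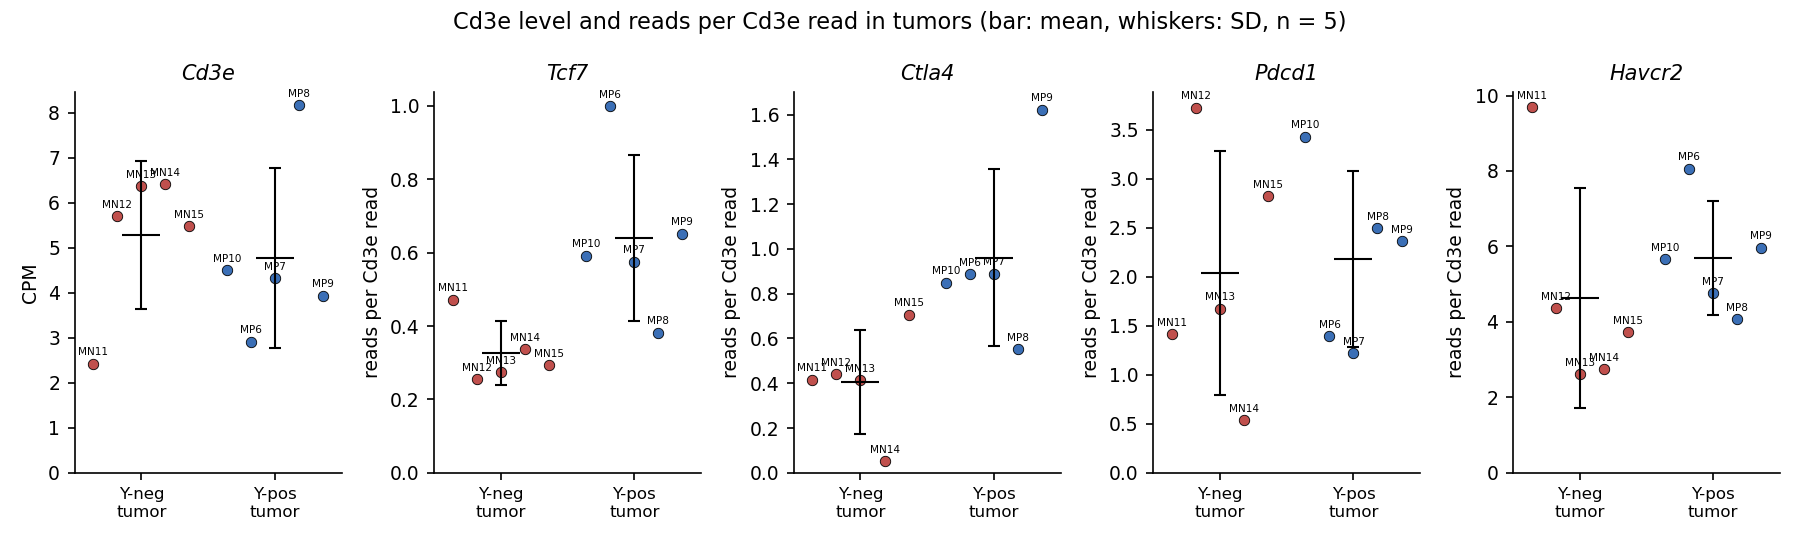
Cd3e level (CPM, left) and reads of Tcf7, Ctla4, Pdcd1 and Havcr2 per Cd3e read in the 10 tumors, 1 point per library with the mean and SD of 5 (linear axes from 0). Tcf7 is apart in CPM but not per Cd3e read, where MN11 at 0.472 lies above MP8 at 0.382.

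Related genes were followed in lists chosen by function. Of 13 tested further receptors and surface proteins linked to exhaustion, 2 had changes above 0 and 11 below, with a median of -0.59. By the edgeR test 0 passed, and 4 had an unadjusted p under 0.05, against 22.7% of all genes. Those with the smallest adjusted p were Pdcd1lg2, the PD-1 ligand PD-L2, at 1.60 ± 0.689 CPM in Y-negative and 3.57 ± 1.61 CPM in Y-positive tumors (adjusted p = 0.122), the lectin-like receptor Klrg1 (0.833 ± 0.534 and 1.89 ± 0.815 CPM, adjusted p = 0.185) and the ectoenzyme Nt5e, or CD73 (2.38 ± 0.674 and 3.86 ± 1.37 CPM, adjusted p = 0.189). Of 16 tested transcription factors of the exhaustion program, 8 had changes above and 8 below 0, with a median of 0.02. Nfatc2, a factor that calcium signalling brings into the nucleus, was the 1 that rose, from 5.38 ± 0.504 CPM in Y-positive to 9.86 ± 2.91 CPM in Y-negative tumors (log2 change 0.85 ± 0.20, edgeR adjusted p = 0.0467). That call held in 4 of 18 alternatives (log2 changes of 0.56 to 1.0, adjusted p = 0.00239 to 0.549), and was lost with limma-voom, with other scalings and without MN11, MN13, MN14 or any Y-positive tumor. Nr4a3 (-1.11 ± 0.37, adjusted p = 0.112) and Bhlhe40 (0.46 ± 0.16, adjusted p = 0.131) did not pass. In the cultures Bhlhe40 was at 91.8 to 542.5 CPM and Nr4a3 at 0 to 1.98 CPM, while Nfatc2 was not listed.

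Among 10 tested genes of stem-like and memory T cells, the group of Tcf7 by function, 3 had changes above 0 and 7 below, with a median of -0.49. Ccr7, the chemokine receptor that leads cells to lymph nodes, was the 1 that passed: it was lower in Y-negative tumors, at 2.08 ± 0.745 CPM against 6.60 ± 1.64 CPM (log2 change -1.68 ± 0.30, edgeR adjusted p = 0.0165). It passed in 16 of 18 alternatives (adjusted p = 6.73e-06 to 0.186), but not without MP8 or with MN12 and MN15 as the only Y-negative tumors. Ccr7 was also read in the cultures, at 0.813 to 7.65 CPM. Foxo1 (0.52 ± 0.26) did not pass, and it was read in the cultures at 24.63 to 67.05 CPM. All 9 tested effector genes had changes below 0, with a median of -0.62, and 0 passed the edgeR test. An unadjusted p under 0.05 was found for 3 of 9, against 22.7% of all genes. The lowest adjusted p-values were those of perforin, Prf1 (6.04 ± 2.90 against 11.7 ± 2.34 CPM, adjusted p = 0.131), granzyme B, Gzmb (15.3 ± 5.95 against 26.0 ± 5.25 CPM, adjusted p = 0.142) and the chemokine Ccl5 (9.96 ± 3.18 against 16.2 ± 4.86 CPM, adjusted p = 0.171).

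Of 12 tested ligands of the receptors, 4 had changes above and 8 below 0, with a median of -0.11. Pdcd1lg2, of the receptor and surface protein list above, is counted here too. By the edgeR test 0 passed, and 4 had an unadjusted p under 0.05, against 22.7% of all genes. The CTLA-4 ligand Cd80 was at 8.43 ± 1.15 CPM in Y-negative and 15.1 ± 3.75 CPM in Y-positive tumors (log2 change -0.84 ± 0.21, adjusted p = 0.0538; 0.00587 to 0.568 over the alternatives), and its partner Cd86 at 11.9 ± 3.59 and 21.5 ± 8.20 CPM (adjusted p = 0.125). Cd80 was read in cultured cells at 89.9 to 253.8 CPM, above every tumor, while Cd86 was not listed for cultures. Cd274, the PD-L1 gene, ran from 42.0 to 53.3 CPM in Y-negative and from 32.0 to 57.2 CPM in Y-positive tumors.

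Marker genes of host cells that can express the members were read in the same tumors. T cell markers, 16 of 16 with reads, summed to 47.1 to 104.3 CPM (median 76.8) in Y-negative and 54.4 to 144.7 CPM (median 115.6) in Y-positive tumors, and 0 of 16 passed the edgeR test (3 at an unadjusted p under 0.05), with a median change of -0.45. Regulatory T cell markers, 6 of 6 with reads, summed to 7.49 to 9.97 CPM and 8.19 to 18.5 CPM, and NK cell markers, 9 of 9, to 98.0 to 256.2 CPM and 93.4 to 228.6 CPM. Most of the NK sum was Klra4, at 64.2 to 210.5 CPM, which cultured cells also had at 23.2 to 57.7 CPM. Macrophage and dendritic cell markers, 12 of 12 with reads, summed to 996.2 to 1293 CPM and 1266 to 1708 CPM. The leukocyte genes Ptprc, Cd53 and Coro1a summed to 162.4 to 269.4 CPM and 215.2 to 384.4 CPM. These sums are not of host cells alone. In cultures the 6 macrophage and dendritic cell markers listed summed to 98.4 to 369.8 CPM, nearly all from Cd68, Mrc1 and Flt3. The 3 leukocyte genes summed to 12.3 to 33.1 CPM there. Endothelial markers, 8 of 8, summed to 73.0 to 121.4 CPM and 77.4 to 116.6 CPM. Mast cell markers, 6 of 6, summed to 11.1 to 31.4 CPM and 25.3 to 85.8 CPM, and 4 of them (Mcpt4, Cma1, Tpsb2 and Fcer1a) passed the test as lower in Y-negative tumors, with a median change over the list of -2.10, though without MP8 none of these 4 passed. B cell and plasmacytoid markers, 6 of 6, summed to 269.4 to 411.3 CPM and 312.1 to 635.3 CPM, nearly all of it Bst2. Cultured cells also had Bst2, at 50.2 to 183.1 CPM. By the edgeR test 0 genes of the regulatory T cell, NK, macrophage and leukocyte lists passed. Of all genes tested, 22.7% had an unadjusted p under 0.05. The lists had 2 of 5 tested regulatory T cell genes there (median log2 change of the list -0.79) and 2 of 9 NK genes (-0.62). They also had 6 of 12 macrophage and dendritic cell genes (-0.45) and 2 of 3 leukocyte genes (-0.48). The part of these cell types in the differences of Tcf7, Ctla4, Entpd1 and Havcr2 was not tested.

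In the cultured MB49 cells, grown without a host, 3 of the 10 genes were listed: Havcr2, Lag3 and Tigit. Pdcd1 and Ctla4, the other pair whose upstream stretch is printed, were not. Havcr2 was at 6.55, 21.8, 11.1, 17.7 and 56.6 CPM in the Y-negative cultures BN2, BN3, BN6, BN9 and BN10 and at 28.3, 33.6, 12.7, 20.8 and 28.9 CPM in the Y-positive cultures MB8, MB11, MB17, MB19 and MB34. These levels span those of the tumors (16.7 to 33.4 CPM), with the highest and the lowest both in Y-negative cultures. The leukocyte gene Ptprc had 0 to 23 reads in the same cultures, where Havcr2 had 129 to 1016. Of the other leukocyte genes read, Coro1a was at 0.661 to 2.29 CPM there, but Cd53 was at 10.0 to 31.6 CPM. Lag3 had 5 to 19 reads per culture (0.278 to 1.24 CPM), and Tigit 2 to 67 reads (0.137 to 3.50 CPM). Between Y-negative and Y-positive cultures, 0 of the 3 were called by edgeR, with 0 at an unadjusted p under 0.05 and 0 by DESeq2, where edgeR called 0.0321% of genes (16.9% at an unadjusted p under 0.05) and DESeq2 3.79%. The log2 changes were -0.18 ± 0.45 for Havcr2, -0.64 ± 0.41 for Lag3 and 0.28 ± 0.58 for Tigit (adjusted p = 0.861, 0.430 and 0.832). The sign for Havcr2 turned to 0.05 without BN2, and that for Tigit to -0.01 without MB19.

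Tumors were then compared with cultures over all 20 libraries, where 69.6% of the genes tested were called and 35.6% were called as higher and 34.0% as lower in tumors. Lag3 and Tigit rose in tumors (2 of 3) and Havcr2 did not pass. Lag3 was at 3.30 to 7.77 CPM in tumors and 0.278 to 1.24 CPM in cultures, 6.36-fold higher (log2 change 2.67 ± 0.24, edgeR adjusted p = 1.88e-09). Tigit was at 4.52 to 7.50 CPM in tumors and 0.137 to 3.50 CPM in cultures, 2.81-fold higher (1.49 ± 0.32, edgeR adjusted p = 0.000261). For both genes all 10 tumors lay above all 10 cultures, and 21.8% of the genes tested were likewise apart, in either direction. Havcr2 was at -0.20 ± 0.26 (95% interval -0.73 to 0.34; edgeR adjusted p = 0.501), 0.10 without BN10. The genotype difference did not differ between tumors and cultures by more than its error for the 3 genes (log2 difference of the changes -0.16 ± 0.52 for Havcr2, 0.37 ± 0.47 for Lag3 and -0.40 ± 0.63 for Tigit): edgeR called 0 of the 3, with 0 at an unadjusted p under 0.05, and 4.56% of all genes (22.7% at an unadjusted p under 0.05). A tumor library mixes host and MB49 RNA, so the Havcr2 reads of tumors cannot be assigned to T cells from these tables.

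**Figure D5:**
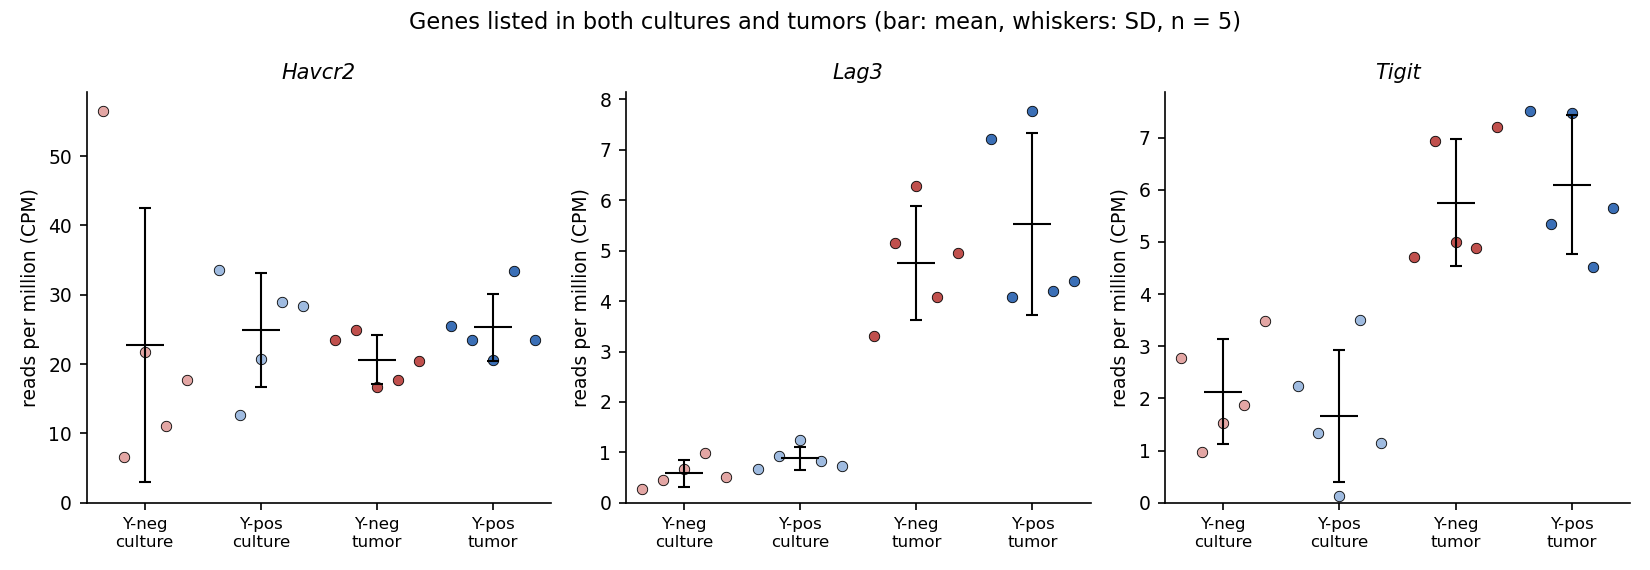
Level (CPM, linear axes from 0) of Havcr2, Lag3 and Tigit in 5 libraries each of Y-negative and Y-positive cultures and tumors, 1 point per library with the mean and SD. Lag3 and Tigit lie higher in all 10 tumors than in all 10 cultures, and the Havcr2 values of cultures (6.55 to 56.6) enclose those of tumors.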

How the data were processed

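Read counts per gene were analysed for 20 libraries (4 groups of 5). The authors deposited whole-number read counts, per the file headers, and FPKM values made by the authors, used here for levels per length. A further deposited column held a normalized signal, equal to the count over a constant in 19 tables (relative tolerance 1e-06) and not used. In the table of MN14 that column is named for another sample (1 such column). Per the submitters' processing notes, cutadapt 2.3, STAR 2.7.0d, RSEM 1.3.1, FastQC 0.11.5, MultiQC 1.8 and mm10 were used; strand, counting options and annotation were not given in the sources used here, and reads of antisense or overlapping genes cannot be told apart. Names in the table of MN12 were taken by gene ID. There were 28025 genes listed for tumors, 14701 for cell lines and 14650 for both.

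Counts were fitted with edgeR 4.0.16 in R 4.3.3 (TMM, filterByExpr with minimum count 10 and minimum total 15, quasi-likelihood F-test, Benjamini-Hochberg over all genes tested, called at an adjusted p under 0.05), 5 against 5 for tumors and for cell lines, and over 20 libraries for the 4 group means. DESeq2 1.42.0, limma 3.58.1, other scalings, filters and left-out libraries were alternatives. The fitting code was tested on simulated data. The fits without MN12 and MN15, or without MN11, MN13 and MN14, on the Cd3e scale were added after seeing the data. The labels do not tie libraries to separate animals or cultures, so p-values reflect only how these libraries vary, which may be technical. Correlations use log2 CPM (prior count 2). The Tox2 floor of 3 reads and its interval cover counting error only. Beside all 10 members, up to 3 genes of each functional list with the smallest adjusted p, any that passed, and the 3 genes most correlated with each member are named (an item this rule takes is not reported here); Klra4, Bst2, Cd274 and the marker genes in the text were named after their values were seen. Members and lists were chosen with earlier results of these data known.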

Additional observations from a re-analysis of the deposited data

Results flagged for a closer look

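The 2 values that stood far from the rest of their group of 5 tumors, among 44 groups of values examined, were these; chance alone gives about 1 such value in 20 groups. Havcr2 had 9.69 reads per Cd3e read in MN11, where the gap to the next Y-negative tumor was 0.754 of the range of the group (above 0.71 is far for 5 values). MN11 had 36 Cd3e reads, the fewest of all tumors, and its Havcr2 level of 23.5 CPM lay within the range of its group. Cd160 was at 4.09 CPM in MP8, with a gap of 0.768 of the range of the Y-positive tumors. MP8 also had the highest level of Havcr2, Tcf7 and Cd3e. The causes were not tested.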

How the results depend on the processing

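The number of members called in tumors was 0 in all alternatives but the fit without MN12 and MN15, which called 2 (Ctla4 at -1.74 and Entpd1 at -0.44). The number of genes called in tumors was 1333 with DESeq2, 234 with library totals alone, 21 without MN11, MN13 and MN14, and 3630 without MN12 and MN15, and 80 (without MN11, and without MP8) to 796 (without MN12) with single libraries left out. In cell lines it was 472 with DESeq2 and 2 to 66 with single libraries left out, the most without BN9. The tumor change of Pdcd1 turned to -0.0036 with library totals alone, -0.13 with limma-voom, -0.0074 without a filter, -0.029 with upper-quartile scaling and -0.98 without MN12 and MN15, but was 0.81 without MN11, MN13 and MN14 and 0.67 with the length slope as covariate, and ran from -0.42 (without MN12) to 0.36 (without MP8). That of Tigit turned to 0.088 with the length slope as covariate and 0.27 without MN11, MN13 and MN14. That of Tox turned to 0.064 with the length slope, 0.15 with limma-voom and 0.13 without MN11, MN13 and MN14, and ran from -0.33 to 0.18 with single libraries left out. On the Cd3e scale the median gene was at -0.12; the sum of 3 CD3 genes (median gene 0.22) turned Pdcd1 to 0.20, Lag3 to 0.025, Tigit to 0.095 and Tox to 0.31, and Ptprc (median gene 0.31) turned Pdcd1 to 0.47, Lag3 to 0.063, Havcr2 to 0.060, Tigit to 0.22, Entpd1 to 0.024 and Tox to 0.28. Pdcd1 was at 0.58 there without MN11, MN13 and MN14, and with single libraries left out Pdcd1 ran from -0.43 to 0.15 and Tox from -0.34 to 0.25. In cell lines, single libraries left out moved Havcr2 from -0.83 (without BN10) to 0.049 (without BN2) and Tigit from -0.0091 (without MB19) to 0.76. The difference for Havcr2 between tumors and cell lines ran from -0.39 to 0.45 (without BN10), and its tumor level against cell lines from -0.32 to 0.10 (without BN10). The causes were not tested. Tcf7, Ctla4, Cd160, Lag3, Havcr2 and Entpd1 kept the sign of the tumor change in every alternative not scaled on CD3 genes or Ptprc. Of these, Tcf7, Ctla4 and Cd160 alone also kept it in every fit on those scales. Lag3 and Tigit stayed called against cell lines. No paired analysis was possible because the 2 groups within tumors and within cell lines share no library number, and no label pairs a culture with a tumor. Depth limits Tox2 (9 reads in all), Cd160 (from 2 reads) and Ctla4 (from 6 reads).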
